A study of Mus musculus with 6 samples.

Results

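Potassium channel subunits were examined in vascular smooth muscle cells (SMC) from mouse skeletal muscle, in controls and after depletion of the orphan receptor GPRC5C from smooth muscle. The genes were all protein-coding genes of the deposited table whose symbol starts with Kcn, except Kcnj8. This rule gave 86 of the 32179 listed genes, and 29 of them had a mean of at least 10 over the 6 libraries and were compared between the groups. The symbol covers pore-forming subunits, the accessory subunits that join them and a few regulators, so not each product is a channel by itself. All libraries came from male C57BL6J mice labelled Gprc5c-floxed, aged 8 to 24 weeks, that carried the mTmG reporter and had been given tamoxifen. The controls, whose genotype label reads wild type, gave 3 libraries, and the iSM-G5C-KO mice (KO in the text) gave 3. Cells were freed from muscle with collagenase and dispase, cells that bound antibodies to CD31, CD45 or Ter119 were removed, and living EGFP-positive cells were sorted. The labels name neither the promoter that drives Cre nor the animals behind each library, so a p-value here reflects only how the libraries vary, which may be technical.

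Potassium channels let potassium leave the cell and pull the membrane potential of arterial smooth muscle to negative values, which closes voltage-gated calcium channels and favours relaxation. Voltage-gated channels, large-conductance calcium-activated (BK) channels, inward rectifiers and K2P leak channels share this work in resistance arteries, and ATP-sensitive channels add to it in mural cells of small vessels. Pore subunits assemble as multimers, and their accessory subunits set gating and surface expression.

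The libraries held an estimated 1479333 to 2935833 reads in genes, a shallow depth, and the values are normalised counts that the authors rounded to whole numbers. In each group the library numbered 1 was the deepest and that numbered 3 the shallowest, and depth and number cannot be told apart. Control library 3 stood apart with 29707 genes above 0, against 20481 to 21179 in the others. Gprc5c itself read 428, 532 and 497 in the controls numbered 1, 2 and 3, against 328, 305 and 360 in the KO group, a KO mean at 68.2% of that in controls (exact permutation p = 0.1, the smallest that 3 against 3 libraries allow). Smooth muscle markers were high throughout, with a sum over 8 genes of 9801 to 10465 in controls, against 8640 to 10093 in the KO group. In values not divided by length, pericyte markers summed to more than these in every library (8 genes, 10197 to 15680 and 10875 to 18088). The lists hold genes of unlike length, so the order of such sums does not rank the cell types. Skeletal muscle fibre markers came to 1397 to 3276 and 1987 to 8648 (9 genes), fibroblast markers to 3069 to 4510 and 2530 to 4311 (6 genes), and endothelial markers to 300 to 564 and 326 to 850 (8 genes). Leukocyte, Schwann cell and satellite cell markers came to at most 566, 192 and 116. On the log2 scale of the fit the KO mean was lower for all 8 smooth muscle markers (by under 0.01 for Acta2 and Des) and higher for all 8 pericyte and 8 endothelial markers, and 0 markers of any list passed after adjustment. Of the markers that define other cells, Itgam of myeloid leukocytes was at 0 in control library 2 and KO library 2, and Myod1 of satellite cells in KO library 3. In bulk RNA, fewer cells of a type and less RNA per cell cannot be told apart.

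Levels can be compared between genes only per length, and the transcripts that the cells use, which can change the order, were not determined. Each mean was therefore divided by the length of the gene's merged exons over all annotated transcripts. On this scale Kcne4, an accessory subunit of the KCNE family that associates with voltage-gated channels, was highest at 133 normalised counts per kb. Kcna5, a pore subunit of the Kv1 family, followed at 123, and Kcnj2, a strong inward rectifier, at 71.1. Next came Kcnk3, an acid-sensitive K2P leak channel (54.5 per kb), and Kcnmb1, the smooth muscle beta subunit of BK channels (52.6). The last 2 lay closer together than the spread of either over the libraries. Lower were Kcnh2, the Erg channel known from the heart (40.6), Kcnj12 (36.7), Kcnab1 (31.9), the BK pore gene Kcnma1 (28.2), Kcnk1 (20.6), Kcna2 (19.8), the sodium-activated channel gene Kcnt1 (13.7), Kcnj11 (11.8) and Kcnip3 (10.3). A further 13 compared genes were at 7.18 per kb (Kcnt2) or lower, Kcnc1 being the lowest. Exons of 11 compared genes overlap those of another gene on the opposite strand, over at most 12.2% of their length (Kcnk2), and those of Kcnab2 overlap a gene on its own strand over 2.24%. The labels do not state if reads were counted by strand.

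**Figure D1:**
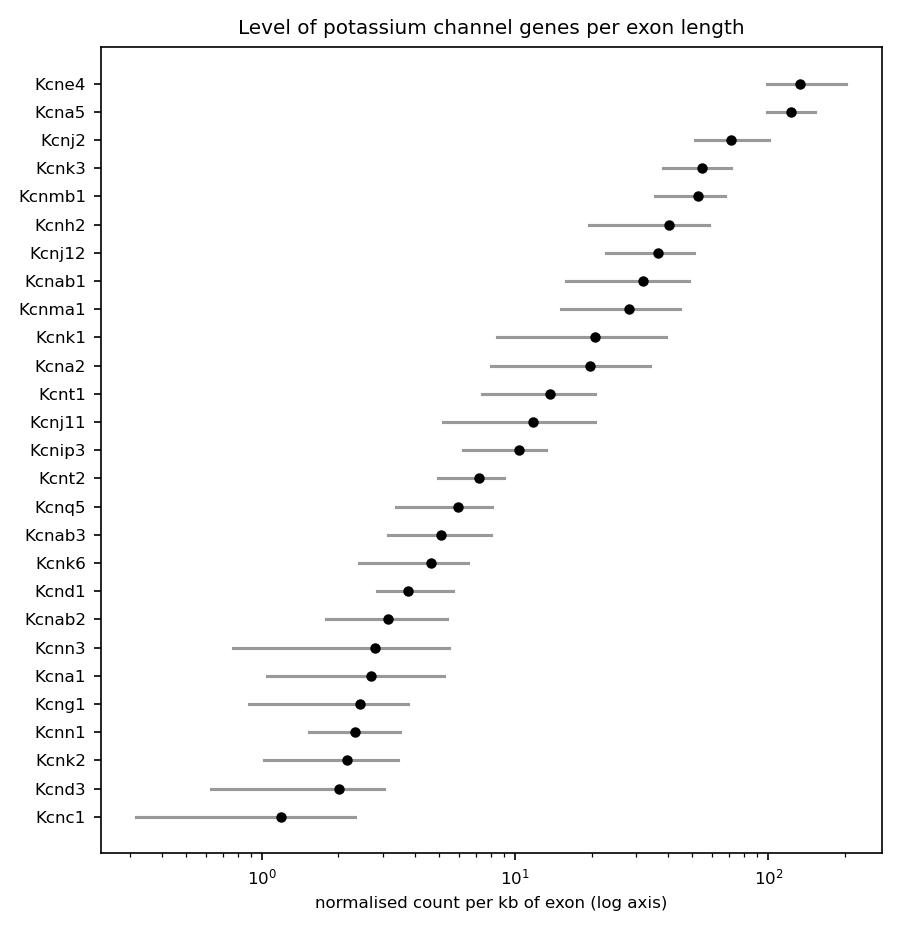
Normalised count per kb of merged exon length (log axis) for 27 of the 29 compared genes. Points are means over 6 libraries and bars run from the lowest to the highest library. Kcne4 and Kcna5 lead at 133 and 123 per kb.

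The remaining 57 genes had a mean under 10 and were not compared. Many of them are best known from neurons or epithelia. In the class with a mean of 5 to 10 were 6 genes: Kcnmb2, Kcnh1, Kcnn2, Kcnk5, Kcng4 and Kcns3, of which the last is a silent subunit that modifies Kv2 channels. Means from 1 to 5 were found for 25 genes, among them Kcnq1, Kcnq3, Kcnn4, Kcnb2 and Kcnmb4, and means under 1 for 26, among them Kcna3, Kcnd2, Kcne1, Kcnj1 and Kcnj10. Control library 3 had 49 of the 57 above 0, against 23 to 34 in the other libraries, and it held the single highest value in 27 of them. In the 29 compared genes it held the highest value in 3.

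Promoters are printed for 3 abundant genes of unlike role that RefSeq holds, an accessory subunit, an inward rectifier and a voltage-gated pore, to show how far their sequence is alike. Each is the 250 bases before the RefSeq start of GRCm38.p6, 5′ to 3′ on the gene's strand, and overlaps no annotated exon: Kcnmb1 at chr11:33962763-33963012 (plus), Kcnj2 at chr11:111065914-111066163 (plus) and Kcna5 at chr6:126535556-126535805 (minus), where RefSeq sets the start upstream of that in the deposited table. Capitals mark GGGCGG (GC box), CATTCC (the MCAT element) and the CArG box, the site of serum response factor, searched on both strands.
Kcnmb1: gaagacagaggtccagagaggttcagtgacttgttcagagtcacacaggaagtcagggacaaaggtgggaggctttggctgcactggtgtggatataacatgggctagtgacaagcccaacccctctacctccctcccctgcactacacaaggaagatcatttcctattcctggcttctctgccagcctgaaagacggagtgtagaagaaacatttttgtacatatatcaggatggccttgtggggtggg
Kcnj2: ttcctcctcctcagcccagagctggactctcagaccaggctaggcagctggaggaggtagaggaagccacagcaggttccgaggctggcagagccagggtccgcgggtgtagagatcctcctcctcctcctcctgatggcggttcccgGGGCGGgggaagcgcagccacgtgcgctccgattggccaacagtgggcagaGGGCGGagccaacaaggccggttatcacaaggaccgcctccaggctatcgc
Kcna5: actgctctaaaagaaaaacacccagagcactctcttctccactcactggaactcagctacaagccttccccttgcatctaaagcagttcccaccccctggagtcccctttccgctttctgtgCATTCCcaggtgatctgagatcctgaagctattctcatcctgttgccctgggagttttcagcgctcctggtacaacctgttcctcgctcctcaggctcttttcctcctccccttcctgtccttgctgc
Kcnj2 has 2 GC boxes, which start 102 and 51 bases before the start, and 14 CG dinucleotides, Kcna5 has 1 MCAT match 128 bases before it and 3 CG dinucleotides, and Kcnmb1 has no match and 1 CG dinucleotide. RefSeq had an entry for 19 of the 29 compared genes, with 30 promoters in all. Of these 30, 0 held a CArG box, against 1.47% of all 32851 promoters, 9 held GGGCGG (32.7% of all), 3 CATTCC (12.6%) and 20 the E-box CANNTG (66.2%), which can overlap the others. A match is a description of the letters in this window.

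Among voltage-gated channels of the Kv1 family, Kcna5 (ENSMUSG00000045534, GRCm38 chromosome 6, 126532551 to 126535412, minus strand) was at 437, 352 and 294 in the controls and 421, 282 and 322 in KO libraries, given here and below in the order 1, 2, 3. Kcna2, another pore subunit of the family (chromosome 3, 107101146 to 107115005, plus strand), was at 363, 261 and 146 against 407, 142 and 95. Kcnab1, a beta subunit that binds Kv1 pores in the cytoplasm (chromosome 3, 65109384 to 65378219, plus strand), was at 417, 350 and 163 against 396, 182 and 136. In all 3 genes the library numbered 1 was the highest of its group and the groups overlapped. Kcnab2, a related beta subunit (chromosome 4, 152390742 to 152477871, minus strand), was low but was the single compared gene whose groups did not overlap, at 30, 16 and 21 in controls, against 13, 15 and 10 in the KO group. Such non-overlap held for 4.91% of all compared genes of the table and for 3.45% of these 29, a share near the background. Kcnab3 and Kcna1 had means of 14.5 and 12.8.

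The accessory subunit Kcne4 (chromosome 1, 78816758 to 78820028, plus strand) was at 541, 312 and 263 against 427, 302 and 273. Kcnh2 (chromosome 5, 24319589 to 24351604, minus strand) was at 282, 245 and 175 against 268, 116 and 95, with KO libraries 2 and 3 below every control and group means of 234 ± 54.3 and 159.7 ± 94.4 (SD, n = 3). Kcnd3, a fast-inactivating Kv4 channel (chromosome 3, 105452330 to 105674002, plus strand), was low, at 17, 29 and 25 against 22, 17 and 6.

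The BK pore gene Kcnma1 (ENSMUSG00000063142, chromosome 14, 23289431 to 24004859, minus strand) was at 763, 541 and 304 in controls, against 700, 304 and 258 in the KO group, with means of 536 ± 229.5 and 420.7 ± 243.0 (SD, n = 3) that differed by less than either SD. Its partner Kcnmb1 (ENSMUSG00000020155, chromosome 11, 33963013 to 33973641, plus strand), which raises the calcium sensitivity of the pore, was at 282, 268 and 183 against 273, 166 and 150. Both were lowest in KO library 3 and lower in KO library 2 than in control library 2. Of the sodium-activated channels, Kcnt1 (chromosome 2, 25863734 to 25918273, plus strand) was at 196, 168 and 99 against 169, 79 and 70, while its relative Kcnt2 was at 36, 46 and 60 against 34, 62 and 59. The libraries numbered 1 were thus the highest of both groups for Kcnt1 and the lowest for Kcnt2. The small-conductance gene Kcnn3 was at 57, 25 and 21 against 47, 17 and 8.

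Inward rectifiers hold the membrane near the potassium equilibrium and respond to rises of potassium outside the cell. Kcnj2 (ENSMUSG00000041695, chromosome 11, 111066164 to 111076821, plus strand) was at 547, 422 and 297 in controls, against 451, 279 and 325 in the KO group. Its relative Kcnj12 (chromosome 11, 61022564 to 61071131, plus strand) was at 140, 123 and 78 against 131, 70 and 63. Among K2P channels Kcnk3 (chromosome 5, 30588170 to 30625271, plus strand) was at 264, 283 and 175 against 210, 215 and 153. It differed from the other abundant genes in that the library numbered 2 was the highest in both groups. Kcnk1, a weak inward-rectifying K2P channel, was at 88, 56 and 19 against 62, 29 and 22.

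**Figure D2:**
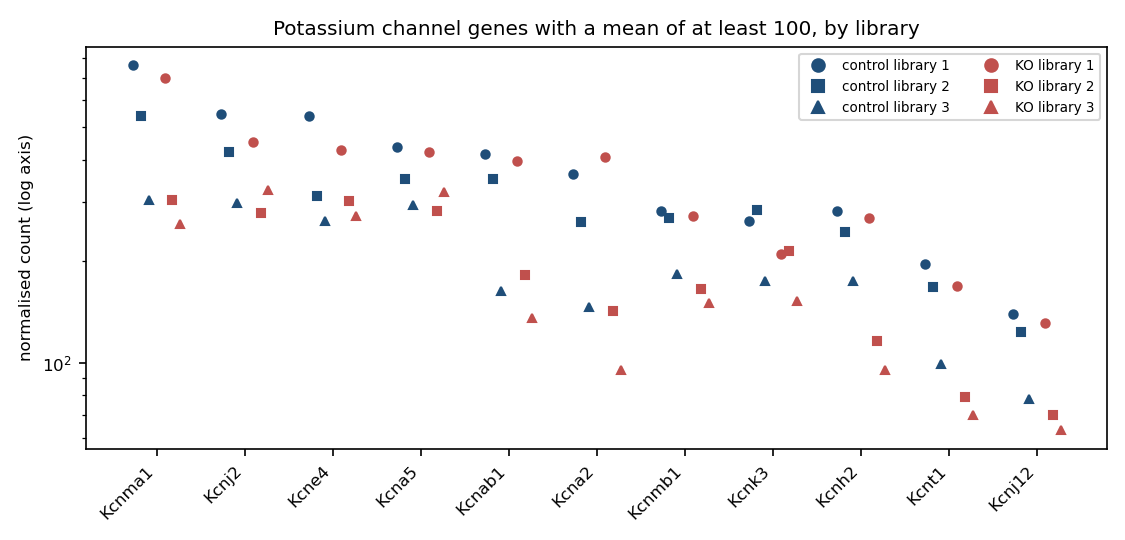
Normalised count (log axis) of 11 of the 13 genes with a mean of at least 100, in each library, controls in blue and KO libraries in red, with circle, square and triangle for numbers 1, 2 and 3. In 10 of the 11 the circle is the highest point of both groups, Kcnk3 being the exception.

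The comparison of the genotypes asks whether expression differs in SMC depleted of GPRC5C. Over all 29 compared channel genes 0 passed the threshold of 0.05 on adjusted p with limma, as did 0% of the 12735 genes tested, and each had an adjusted p of 0.999. Without adjustment 0 of the 29 had a p under 0.05, where 1.81% of all genes did, and the smallest was 0.0621, for Kcnab2. The KO mean on the log2 scale was lower in 23 of the 29 genes (79.3%), against 49.8% of all genes. The median log2 difference was -0.34, with a range from -0.76 (Kcnd3) to 0.37 (Kcng1), against 0.0011 over all genes.

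Among the abundant genes Kcnh2 differed by -0.67 with a standard error of 0.38, Kcnt1 by -0.60 (0.38), Kcna2 by -0.44 (0.54), Kcnab1 by -0.42 (0.46), Kcnj12 by -0.40 (0.32) and Kcnma1 by -0.40 (0.44). The difference was -0.34 (0.26) for Kcnmb1, -0.31 (0.22) for Kcnk3, -0.25 (0.26) for Kcnj2, -0.11 (0.29) for Kcne4 and -0.08 (0.20) for Kcna5. Among the less abundant genes that of Kcnab2 was -0.74 (0.34) and that of Kcnd3 -0.76 (0.48). The direction of 3 of these genes turned when libraries were left out: Kcne4 was at 0.19 without control library 1 and 0.02 without KO library 3, Kcna5 at 0.07 without control library 1 and 0.05 without KO library 2, and Kcna2 at 0.0025 without KO library 3. Without control library 1 the difference was -0.09 for Kcnma1 and -0.04 for Kcnj2. Without KO library 3 it was -0.10 for Kcnab1, -0.15 for Kcnk3, -0.17 for Kcnmb1, -0.20 for Kcnj12, -0.25 for Kcnd3, -0.36 for Kcnt1 and -0.38 for Kcnh2. Without KO library 1 it was further from 0 in several genes, such as Kcnh2 (-1.12), Kcna2 (-1.04), Kcnt1 (-0.99), Kcnab1 (-0.87) and Kcnma1 (-0.84).

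By family, the KO mean on the log2 scale was lower for the 3 compared Kv1 pore genes, the 3 inward rectifiers and both SK genes. It was lower too for 2 of 3 Kv beta genes and 3 of 4 K2P genes, where 49.8% of all genes were lower. Single libraries did not all follow, such as KO library 1, in which Kcna2 was above every control. In the Kv4 and sodium-activated families 1 gene was lower and 1 higher in each. In 0 of these families did a gene pass the test.

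**Figure D3:**
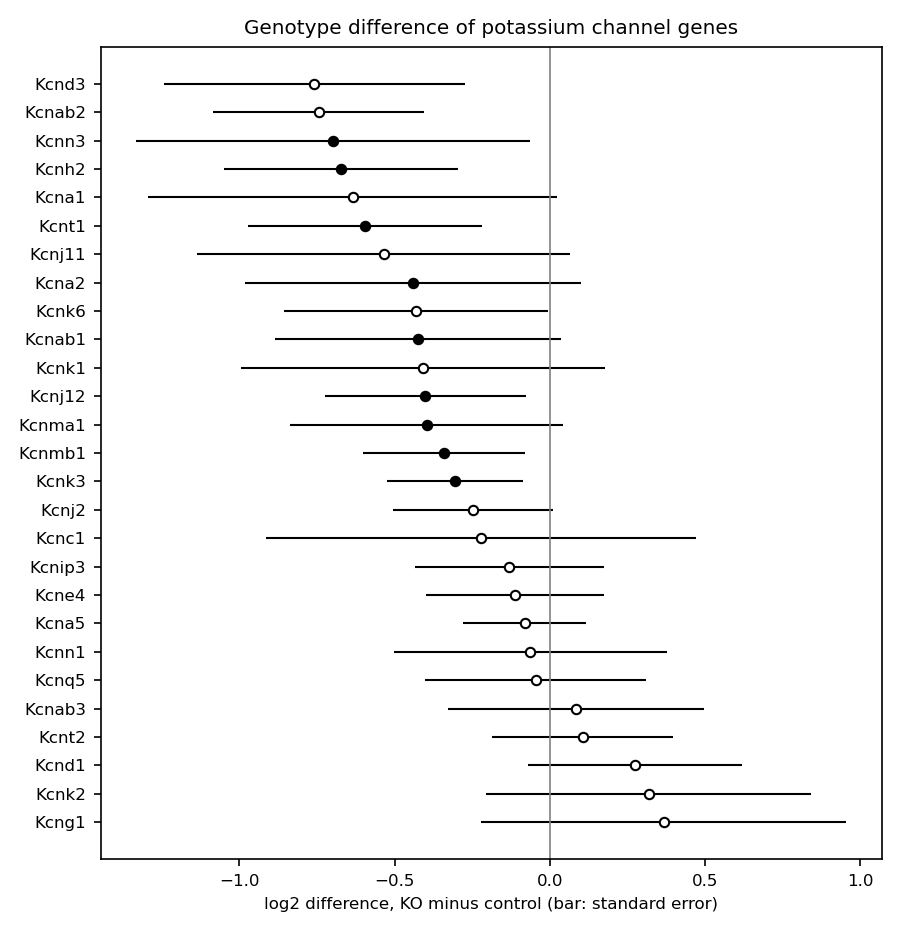
Log2 difference, KO minus control, with its standard error, for 27 of the 29 compared genes. Filled points have an unadjusted p under 0.05 once the replicate number is a block, which holds for 9 of the points, all on the lower side, and 22 points lie below 0.

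Same-numbered libraries deviated together, and a block on the number moved the unadjusted count. With limma and the block 10 of the 29 genes had an unadjusted p under 0.05 (34.5%), against 10.2% of all genes. All 10 had the lower mean in the KO group, where 5.96% of all genes were lower and 4.29% higher at that p. Among them were Kcnh2 (unadjusted p = 0.00422 with limma), Kcnt1 (0.00602), Kcnk3 (0.0111), Kcnma1 (0.0143), Kcnab1 (0.0226), Kcnmb1 (0.0267), Kcnj12 (0.0322), Kcna2 (0.0342) and Kcnn3 (0.036). None passed after adjustment (0 of 29 genes, against 0.00785% of all genes), and the smallest adjusted p with limma and the block was 0.246, for Kcnh2. With both libraries numbered 1 left out, Kcnh2 alone of the 29 passed (log2 difference -0.97, adjusted p = 0.0366 with limma and the block), and 61 of the 12735 genes tested did. With numbers 2 or 3 left out the adjusted p of Kcnh2 with limma and the block was 0.640 and 0.795. Each of these fits has only 2 libraries per group, so its p-values lean heavily on the variance shared over genes.

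Matched by number, KO library 1 lay below control library 1 in 20 of 29 genes (69%), against 52.7% of all genes, with a median log2 difference of -0.10. KO library 2 lay below control library 2 in 20 genes, against 48.8% of all, with a median of -0.49. KO library 3 was below control library 3 in 19 (65.5%), against 46.5% of all, with a median of -0.26. The median over all genes was between -0.023 and 0.016 in these 3 comparisons. The number 2 pair therefore held the median furthest from 0, and the median over the 29 genes was -0.24 without KO library 2, -0.13 without KO library 3 and -0.16 without control library 1.

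Libraries of unlike number differed in these genes within both genotypes. The 86 genes together summed to 6004, 4668 and 3321 in control libraries 1, 2 and 3, against 5388, 3168 and 2934 in the KO group. In a fit with group and number 16 of the 29 genes were lower in the libraries numbered 3 than in those numbered 1 (adjusted p under 0.05 with limma), that is 55.2%, against 13.4% of all genes. Another 3 were higher (10.3%, against 7.37% of all). With upper-quartile rescaling 8.97% of all genes were lower and 11.9% higher, and 14 and 3 of the 29. Among the lower were Kcnn3 (log2 difference -1.91, standard error 0.34), Kcnk1 (-1.80, 0.30), Kcnj11 (-1.71, 0.38), Kcna2 (-1.70, 0.22), Kcnab1 (-1.44, 0.19) and Kcnma1 (-1.38, 0.16). Kcnt1, Kcnh2, Kcnj12, Kcne4, Kcnmb1, Kcnj2, Kcnk3 and Kcna5 were lower too, from -1.12 to -0.48. The 3 higher genes were Kcnc1 (1.86), a fast Kv3 channel with few reads, the Kv7 gene Kcnq5 (0.87) and Kcnt2 (0.75). Against the libraries numbered 1, those numbered 2 were lower in 4 genes (6.61% of all genes were lower), among them Kcnma1, Kcna2 and Kcne4, and higher in 0 (3.05% of all).

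The number of lower genes was 0 without control library 3, where 0% of all genes of the table passed as well, 4 without KO library 3 (2.11% of all genes lower) and 6 without KO library 1 (4.71%). The 3 higher genes were also lost without any of these libraries or without control library 1. With limma without a trend and with no filter on low values 0 genes passed in either direction. In the fit with group and number 7 of 8 pericyte, 9 of 9 skeletal muscle fibre, 6 of 6 fibroblast and 4 of 8 endothelial markers were higher in the libraries numbered 3. Of all genes 7.37% were higher and 13.4% lower. Of the smooth muscle markers 2 of 8 were lower, and their median log2 difference was 0.03. Of 5 leukocyte and 3 satellite cell markers 0 passed either way, and of 4 Schwann cell markers 1 was lower and 0 higher. Myh11, the smooth muscle myosin heavy chain, was at 4218, 4484 and 4940 in controls, against 4397, 3883 and 4742 in the KO group. Myocd, the cofactor that drives contractile genes, was at 619, 493 and 281 against 571, 272 and 252, with KO libraries 2 and 3 below every control. The part of cell makeup or depth in the channel values was not tested.

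**Figure D4:**
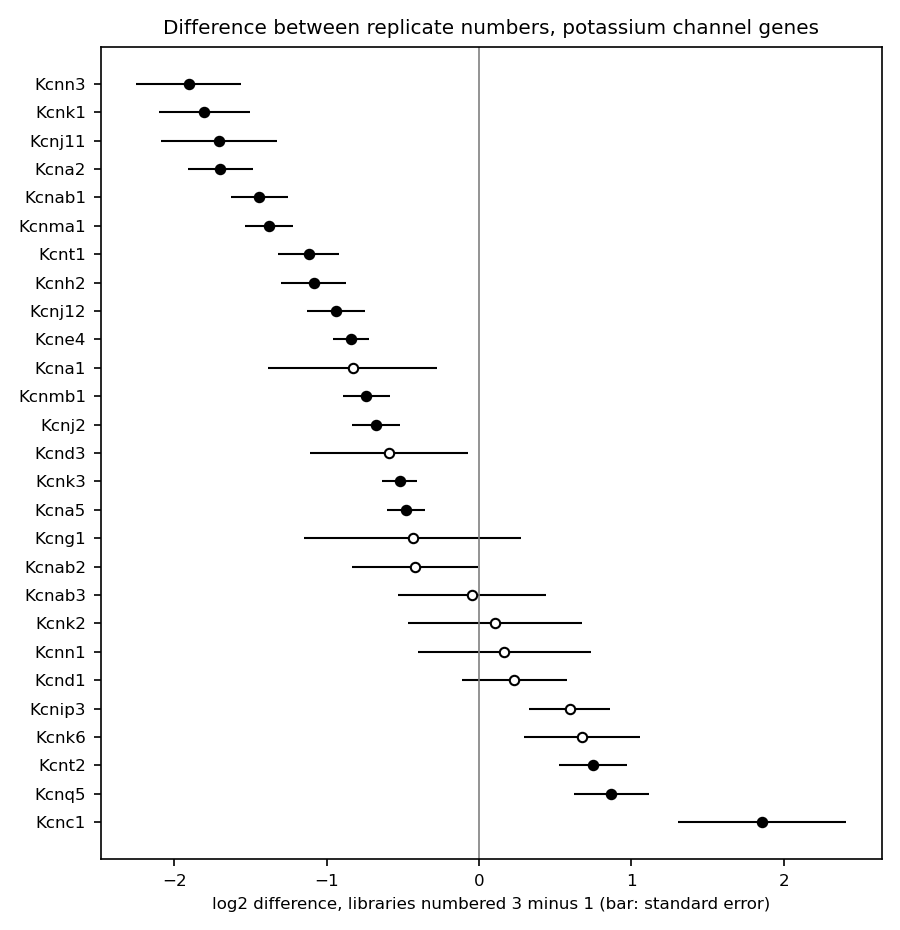
Log2 difference between libraries numbered 3 and 1, from a fit with group and number, with its standard error, for 27 of the 29 compared genes. Filled points pass an adjusted p of 0.05 with limma, 14 below 0 and 3 above 0.

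ATP-sensitive channels join an inward rectifier with a sulphonylurea receptor, Kcnj11 with Abcc8 in the form best known from pancreatic beta cells and Kcnj8 with Abcc9 in the form of vascular mural cells. Kcnj11 (chromosome 7, 46097096 to 46100237, minus strand) was at 76, 57 and 20 in controls, against 66, 19 and 22 in the KO group, and Abcc8 at 221, 152 and 58 against 174, 44 and 66. Both were highest in the libraries numbered 1. Kcnj8, by contrast, was at 450, 655 and 970 against 551, 806 and 1209, and Abcc9 at 1598, 1983 and 2816 against 1881, 2462 and 3458, with the libraries numbered 1 lowest. Between numbers 3 and 1 the log2 difference was -1.71 for Kcnj11 (adjusted p = 0.0148 with limma) and -1.65 for Abcc8 (0.0157), and 1.12 for Kcnj8 (0.000477) and 0.85 for Abcc9 (0.00071). Without control library 3 no gene of the table passed between these numbers, these 4 included. Between genotypes none of the 4 passed (adjusted p = 0.999 with limma). Log2 differences were -0.54, -0.64, 0.30 and 0.28, and that of Abcc8 was -0.22 without KO library 2 and that of Abcc9 0.05 without KO library 3. Kcnj8 and Abcc9 are themselves among the 8 pericyte markers. Per exon length, Kcnj11 came to 0.0126 to 0.117 of Kcnj8 over the libraries.

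**Figure D5:**
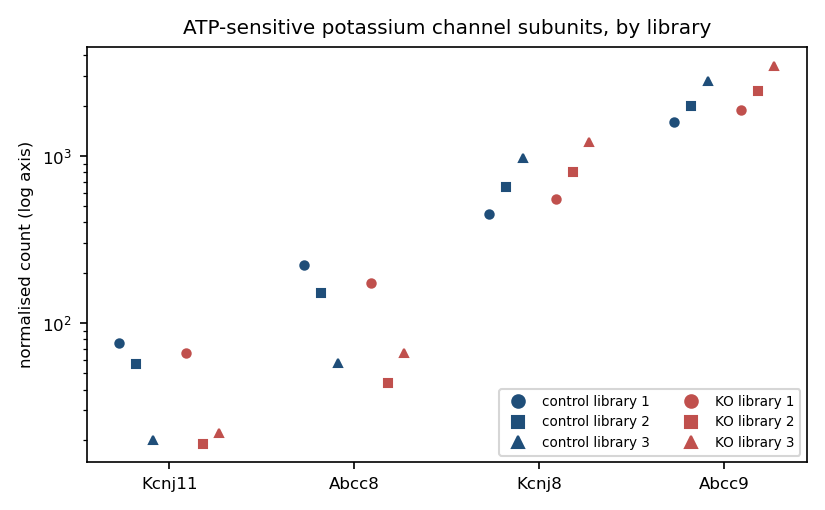
Normalised count (log axis) of the ATP-sensitive channel subunits in each library, controls in blue and KO libraries in red, with circle, square and triangle for numbers 1, 2 and 3. Kcnj11 and Abcc8 are highest and Kcnj8 and Abcc9 lowest in the libraries numbered 1 of both groups.

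Ratios within a library do not depend on its scaling. Per exon length the ratio of Kcnmb1 to Kcnma1 was 1.50, 2.01 and 2.44 in controls, against 1.58, 2.21 and 2.35 in the KO group. On this scale the beta subunit was above the pore gene in every library, and the genotypes differed by 0.056 in log2. In values not divided by length the pore gene was above in every library. The merged exons span 16976 bases for Kcnma1 and 4191 for Kcnmb1, so the order rests on these lengths. The ratio of Kcna2 to Kcna5 was 0.200, 0.178 and 0.119 against 0.232, 0.121 and 0.0709. Kcna5 thus led in each library, as it did by less in values not divided by length. Kcnj12 to Kcnj2 ran from 0.384 to 0.577. The ratio of Kcnt2 to Kcnt1 varied most between libraries of a group other than that of Kcnj11 to Kcnj8, at 0.253, 0.377 and 0.835 against 0.277, 1.08 and 1.16. Over the 6 ratios compared, exact 2-sided permutation p-values between genotypes ran from 0.4 to 0.8 and were 0.8 after Benjamini-Hochberg adjustment. Within replicate numbers the ratio of Kcnt2 to Kcnt1 was higher in the KO library in 3 of 3 pairs, and that of Kcnj11 to Kcnj8 lower in 3 of 3. The exact paired permutation p was 0.25 for each, the smallest that 3 pairs allow, and 0.5 after adjustment over the 6 ratios.

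Other genes that work with these channels were taken from 2 lists. Of 15 auxiliary or interacting subunits 8 were compared, 4 with a lower and 4 with a higher KO mean, with a median log2 difference of -0.012, and 0 passed. Those with the smallest p were Amigo1, a Kv2-associated adhesion protein (log2 difference 0.19), Abcc8, and Cav1, which builds caveolae (log2 difference 0.11). Apart from Abcc9 (log2 difference 0.28), the others with a mean of at least 100 were Akap7, Prkaca, Prkg1 and Wnk1 (-0.14 to 0.05). The gamma subunits of BK channels Lrrc26, Lrrc38, Lrrc52 and Lrrc55 and the Kv4 partners Dpp6 and Dpp10 had means under 10. Of 28 other setters of membrane potential 24 were compared, 12 lower and 12 higher, with a median of 0.0020, and 0 passed. With limma and the block, 7 of these 24 were lower and 2 higher at an unadjusted p under 0.05. Among the 8 auxiliary or interacting genes 0 were lower and 1 higher at that p, against 5.96% and 4.29% of all genes. Ryr1, the release channel of skeletal muscle, was at 60, 49 and 97 against 77, 175 and 494, with a log2 difference of 1.50 (unadjusted p = 0.0408 with limma), or 0.81 without KO library 3. The fibre genes Ttn (422, 442 and 868 against 660, 1638 and 5386) and Neb (106, 117 and 199 against 117, 324 and 661) were also highest in KO library 3, and their part in the Ryr1 value was not tested. Ryr2, whose calcium sparks open BK channels in arterial muscle, was at 936, 667 and 430 against 1001, 370 and 188, and Ryr3 at 133, 69 and 82 against 169, 25 and 25. Their log2 differences of -0.65 and -0.92 were -0.08 and -0.47 without KO library 3. The T-type calcium channel genes Cacna1g and Cacna1h were at 1300, 929 and 557 against 1102, 513 and 521 and at 1453, 1248 and 1143 against 1339, 801 and 868. Of the other abundant genes, Ano1, Cacna1c, Cacna1d, Cacna2d1, Cacnb2, Cacnb3, Itpr1, Itpr2, Piezo1, Slc12a2, Trpc1, Trpc6 and Trpm4 lay between -0.53 and 0.30. With both libraries numbered 1 left out and the block, Ryr1, Ryr2 and Ryr3 passed (adjusted p = 0.00247, 0.0208 and 0.0403 with limma). In all, 61 of the 12735 genes tested passed in that fit, whose p-values lean heavily on the variance shared over genes. Between libraries numbered 3 and 1, 10 of the 24 were lower and 4 higher (adjusted p under 0.05 with limma), against 13.4% and 7.37% of all genes. Without control library 3 no gene of the table passed between these numbers.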

How the data were processed

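RNA sequencing libraries of sorted SMC were analysed from the deposited table, which has 1 column per library. Per the file name and the submitters' processing notes, the deposited unit is a score, namely gene-level read counts after scaling of each library by the authors and rounding to whole numbers. The tools that the authors list there are DESeq2 1.18.1, featureCounts 1.6.5, STAR 2.6.1d and Trimmomatic 0.39, with the builds mm10 and GRCm38.p5 and no role for each. Per the labels' protocols, 5 ng of total RNA entered a stranded low-input kit.

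The worth of 1 read was estimated per library from how often each whole number occurs (0.755 to 1.3997), which gives the depths; where it is under 1, different read numbers share a value, so no count model was run. limma 3.58.1 in R 4.3.3 was fitted on log2(value + 1) with an intensity trend, 2-sided, over the 12735 genes with a mean of at least 10, with Benjamini-Hochberg adjustment. This scale understates the change of low genes. Only the fit with group alone was tested on simulated counts, which had a fixed spread, equal depth and no effect of number. The fits with a block or with number as a term were not tested in this way. The fit over replicate numbers, with group as a term, leaves 2 residual degrees of freedom and was chosen after seeing the data. Exon lengths came from GENCODE M21 (GRCm38.p6), matched for 86 of 86 genes. Deviations of same-numbered libraries from their group means correlated over genes at 0.586, 0.31 and 0.444, and unlike numbers at 0.157 at most. The numbers were therefore taken to pair the libraries, which no label says. Centring on group means lowers the values of unlike numbers when those of like numbers are high, and depth follows the number. Whether the numbers mark a shared preparation was not tested. Values per library are given for genes with a mean of at least 100, for those without overlap and for the 6 smallest p, and partner genes are named from a mean of at least 100 or among the 3 smallest p of their list. The values per library of Kcnj11, Kcnk1, Kcnn3, Kcnt2, Myh11 and Myocd fall outside this rule and were chosen after they were seen, as were those of Ttn and Neb, the low partner genes named and the pairing of the ratios by number. The genes and lists were chosen with earlier results of these data known. Some genes in these counts are not reported here by name.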

Additional observations from a re-analysis of the deposited data

How the results depend on the processing

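Shallow depth limits what can be seen for genes with few reads. Of 373 recomputed differences of named genes, 362 kept their direction and their side of the threshold under the 15 alternatives. Kcnh2, Ryr1, Ryr2 and Ryr3 passed with the replicate block when the libraries numbered 1 were dropped, and 7 changed sign. Without 1 library the difference ran from -0.33 to 0.19 for Kcne4, from -0.24 to 0.066 for Kcna5 and from -1.04 to 0.0025 for Kcna2, and with the block it was 0.0034 for Kcne4 without the libraries numbered 1 and 0.039 for Kcna5 without those numbered 2. The count of channel genes past the adjusted threshold, 0, was 1 with the block and number 1 left out and 0 whichever single library was left out. The unadjusted count, 0, was 10 with the replicate block (all lower, as were 5.96% of all genes). With the block and numbers 1, 2 or 3 left out it was 9, 5 and 6 (all lower, as were 6.12%, 4.35% and 3.77% of all genes). With no filter on low values it was 1, a gene higher in the KO group, where 257 of 32179 genes were higher. With limma without trend it was 1, lower, as were 1.08% of all genes. Without 1 library it was 0 to 7, all lower. The 7 were without KO library 1 (5.39% of all genes lower), and it was 1 without control library 2 or 3 (0.33% and 0.982% lower). Over all genes 0 passed, 1 with the replicate block, 61 with the block when number 1 was dropped, 1 when number 2 was and 0 when number 3 was, and 0 without any single library. With the block no other call changed. The median over channel genes was -0.48 to -0.13 without 1 library and -0.17 with the block and number 2 left out. The 16 genes lower in libraries numbered 3 became 0 with no filter, 0 with limma without trend and 0 to 16 without 1 library, and the 3 higher became 0, 0 and 0 to 3, and 0 with a mean of at least 50. Leaving out a library numbered 1 or 3 leaves 1 library of that number, assumed to vary like the rest. For each of these the cause was not tested. With no filter, the median of all genes moved to -0.14. Alternatives for the fit over numbers were chosen after seeing the data.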
